A study of Mus musculus with 18 samples.

Results

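Transcript levels of 10 genes of fibroblast growth factor (FGF) receptor signaling were followed through RNA sequencing of mouse cochlea. The genes were chosen by name, but with earlier results of these data known. They are the ligand Fgf20, the receptors Fgfr1, Fgfr2 and Fgfr3, the feedback inhibitors Spry1, Spry2, Spry4 and Dusp6, and the ETS transcription factors Etv4 and Etv5. All 10 were found among the 47729 genes listed in each of 18 libraries, and all 10 passed the filter of at least 1 TPM (a transcript level corrected for gene length and scaled to a fixed total) in at least 2 libraries. The libraries fall into 9 groups of 2 replicates, named in the sample titles. Of the groups, 6 are LCP cultures, labelled as primary cochlear organoids: sorted cultures at D0 and D10 of differentiation, and unsorted cultures at D0, D2, D4 and D10. The other 3 groups are cells sorted from native cochlear sensory epithelium at P2, called the Atoh1, Lgr5 and Sox2 sorts. The series set out to compare native hair cells with native supporting cells, and LCP cultures between time points. The Atoh1 sort stands here for hair cells and the Lgr5 and Sox2 sorts for supporting cells. The meaning of LCP, the marker by which cultures were sorted, the culture media, and the strain and genotype of each group do not appear in the labels. A general protocol in the labels describes tamoxifen given to Sox2-CreER pups with a floxed exon of beta-catenin, but no sample title carries that allele, so it was assigned to no group.

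FGF ligands bind receptor tyrosine kinases at the cell surface with heparan sulfate as a co-factor, and the receptors pass the signal through the RAS and ERK kinases to ETS transcription factors such as Etv4 and Etv5. Spry proteins and Dusp6, a phosphatase of ERK, are induced by the same signal and dampen it, so these genes are widely used as readouts of ERK activity. In the developing mouse cochlea Fgf20 acts through Fgfr1 in the sensory epithelium and is needed for outer hair cells and outer supporting cells, while Fgfr3, activated by Fgf8 from inner hair cells, is needed for pillar cells.

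The libraries had 14381 to 16713 genes at 1 TPM or more, and the correlation between replicates over genes lay between 0.903 and 0.945. TPM keeps no read depth, so the depth of each library is unknown. The labels tie each sample to 1 pup only in a general protocol, so p-values measure the spread between these libraries, which may in part be technical. The sorts were not cleanly separated by their markers, and their purity was not tested. The summed level of 10 hair cell markers was 1443 and 1958 TPM in the Atoh1 sort but also 589 to 1083 TPM in the Lgr5 and Sox2 libraries, and 10 supporting cell markers summed to 1013 and 441 TPM in the Atoh1 sort. In bulk libraries, fewer cells of a type and less RNA per cell cannot be told apart. Whether libraries of 2 groups overlap is given below as a description only. With 2 libraries a group they can fail to overlap by chance, and the share of all genes without overlap was not counted.

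Fgf20 had 18.8 and 7.35 TPM in the 2 Atoh1 libraries, 10.2 and 7.43 TPM in the Lgr5 libraries, and 5.24 and 5.69 TPM in the Sox2 libraries. In the cultures this ligand had 1.86 and 1.41 TPM in sorted D0, and it was listed at 0 in both sorted D10 libraries. Unsorted cultures had 1.09 and 3.00 TPM at D0, 0.153 and 0.705 TPM at D2, 0 and 0.0548 TPM at D4, and 0.565 and 0.181 TPM at D10. All 12 culture libraries, at 3.00 TPM or less, thus lay below all 6 native libraries, at 5.24 TPM or more. The Fgf20 gene (8:40279166-40308331 on the minus strand, mm10) overlaps Micu3 on the opposite strand, and the libraries carry no strand information, so reads of the shared stretch cannot be assigned.

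Fgfr3 showed the widest gap between cultures and native cells among the 3 receptors. In native cells it had 68.1 and 58.6 TPM in the Atoh1 sort, 216 and 94.7 TPM in the Lgr5 sort, and 106 and 72.5 TPM in the Sox2 sort. In sorted cultures it had 0.988 and 1.91 TPM at D0 and 0.359 and 0.474 TPM at D10. Unsorted cultures had 0.728 and 1.82 TPM at D0, 0.319 and 6.56 TPM at D2, 0.463 and 4.28 TPM at D4, and 0.237 and 3.19 TPM at D10. The highest culture library, at 6.56 TPM, was the second replicate of D2, and in all 4 unsorted groups the second replicate was the higher one. Group means ran from 155 TPM in the Lgr5 sort through 89.3 TPM in the Sox2 sort and 63.4 TPM in the Atoh1 sort to values between 0.417 and 3.44 TPM in the 6 culture groups. The libraries of the Lgr5 and Sox2 sorts overlapped, as did those of the unsorted cultures at D0, D2, D4 and D10 and of sorted D0.

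Fgfr1, the receptor through which Fgf20 acts in the cochlea, followed another order. It was present in every library, with 6.66 to 83.2 TPM in the 12 culture libraries (median 18.8) and 11.1 to 28.7 TPM in the 6 native libraries (median 17.9). The highest group mean was that of unsorted D4, with 83.2 and 26.9 TPM, and the lowest was that of sorted D0, with 6.66 and 10.6 TPM, with neighbouring groups overlapping except sorted D0 below the Atoh1 sort. Fgfr2, whose epithelial splice form binds FGF10 and FGF7, had its highest levels in the Lgr5 sort (12.8 and 57.5 TPM), followed by the Sox2 sort (10.6 and 17.1 TPM) and sorted D10 cultures (10.2 and 11.0 TPM). It had 3.06 and 2.87 TPM in the Atoh1 sort, and between 0.521 and 5.97 TPM in the other culture libraries. The annotated span of Fgfr2 (7:130162451-133123350, mm10) runs over many other genes, among them Ate1, Tacc2 and Htra1. It also holds Cpxm2 and Oat on the same strand, which reached 1150 and 252 TPM in their highest libraries. Whether any of these genes share exons with Fgfr2 was not tested.

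**Figure D1:**
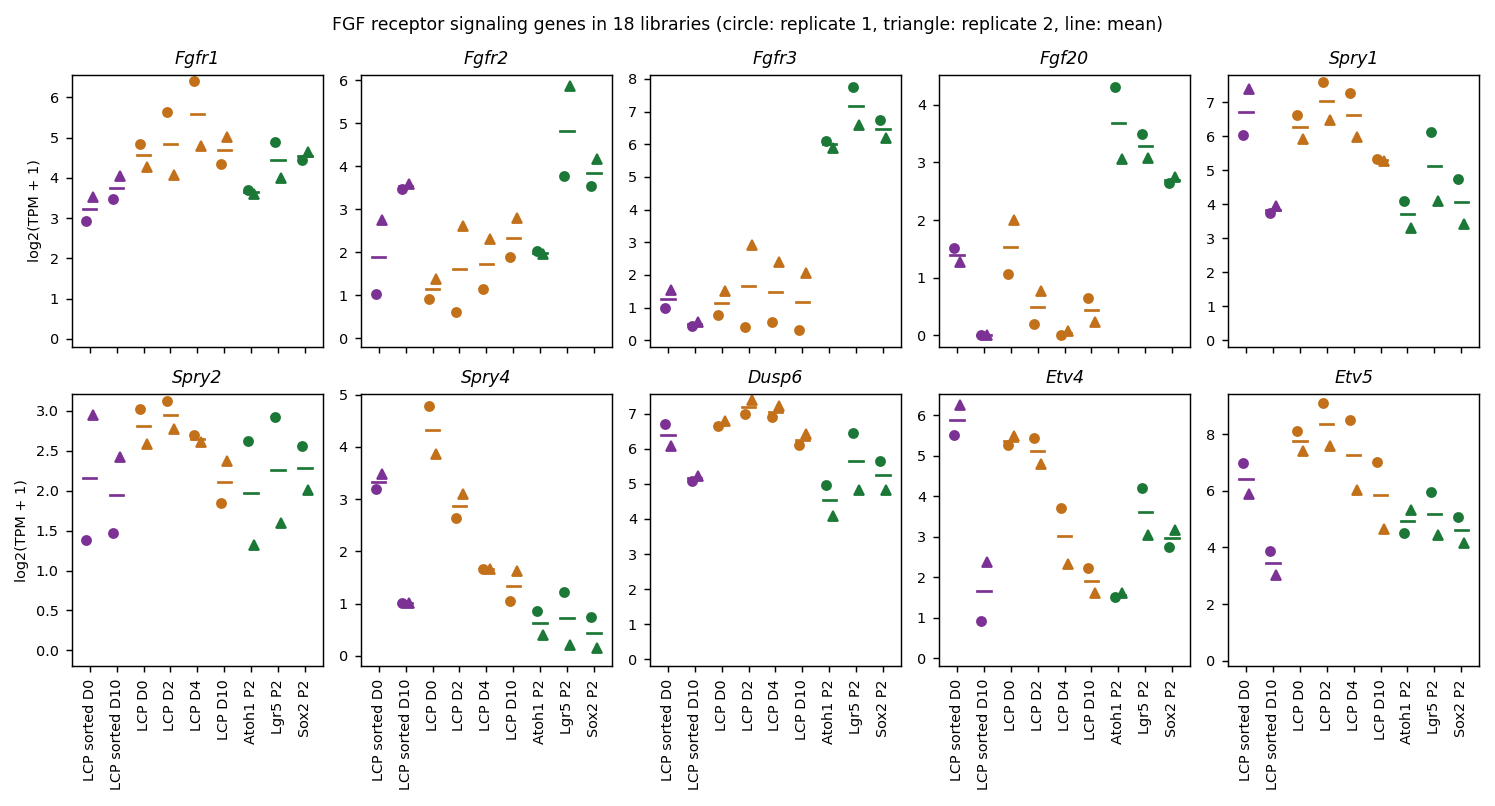
Levels of the 10 genes as log2(TPM + 1) in each of the 18 libraries, 1 panel a gene, with groups along the horizontal axis, a circle for replicate 1, a triangle for replicate 2 and a line for their mean. Fgfr3 and Fgf20 sit lower in all 12 culture libraries than in all 6 native libraries, while the culture and native ranges of Fgfr1 and Spry2 overlap.

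In sorted D0 cultures set against the native Lgr5 sort, 3 of the 10 genes were lower and 2 were higher, where 11% of all 20463 genes tested passed in either direction, 7.11% lower and 3.85% higher. This comparison puts cultures before differentiation beside native supporting cells. Fgfr3 averaged 1.45 ± 0.651 TPM in sorted D0 cultures and 155 ± 85.6 TPM in the Lgr5 sort (SD, n = 2 each), a mean 107 times lower in culture. On the log2(TPM + 1) scale, which understates changes of low genes, its difference was -5.90 (standard error 0.84, limma with Benjamini-Hochberg adjustment over all genes, adjusted p = 0.00092). Fgf20 was lower by a log2 difference of -1.89 (standard error 0.43, adjusted p = 0.0149, limma), and Fgfr2 by -2.93 (standard error 0.81, adjusted p = 0.0377).

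Both genes that were higher in sorted D0 cultures than in the Lgr5 sort are ERK targets. So are Spry1, Spry2, Dusp6 and Etv5, which did not pass in this comparison. Spry4, a feedback inhibitor of receptor tyrosine kinase signaling, had 8.11 and 10.1 TPM in sorted D0 cultures and 1.35 and 0.150 TPM in the Lgr5 sort, a log2 difference of 2.61 (standard error 0.43, limma adjusted p = 0.00222). Etv4 had 44.8 and 75.3 TPM in sorted D0 cultures and 17.4 and 7.18 TPM in the Lgr5 sort, a log2 difference of 2.27 (standard error 0.58, adjusted p = 0.0266). The libraries of the 2 groups did not overlap for either gene. Spry1 had 64.7 and 166 TPM in sorted D0 cultures and 69.2 and 16.3 TPM in the Lgr5 sort, which overlapped, and did not pass (log2 difference 1.59, standard error 0.73, adjusted p = 0.216). Fgfr1 did not pass either, with 6.66 and 10.6 TPM in sorted D0 cultures and 28.7 and 15.0 TPM in the Lgr5 sort (log2 difference -1.21, standard error 0.58, adjusted p = 0.245). The median log2 difference of the 10 genes was 0.33, against -0.09 over all genes tested.

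The same 2 groups differed in cell markers. The summed level of 5 proliferation markers was 303 and 355 TPM in sorted D0 cultures against 30.4 and 25.2 TPM in the Lgr5 sort, and all 5 were higher without overlap. The 8 mesenchyme markers summed to 902 and 423 TPM in sorted D0 cultures against 178 and 116 TPM in the Lgr5 sort, but nearly all of the sum in sorted D0 was Dcn (mean 658 TPM against 86.7 TPM), and the other 7 summed to a mean of 4.86 TPM against 60.5 TPM. Of the 8, Dcn and Twist1 were higher and the other 6 lower without overlap, with Col3a1 at 0 in both sorted D0 libraries. The 10 hair cell markers summed to 34.0 and 28.7 TPM in sorted D0 cultures, with Slc26a5 at 0, and to 589 and 984 TPM in the Lgr5 sort, and all 10 were lower without overlap. The 10 supporting cell markers summed to 886 and 124 TPM in sorted D0 cultures and 3397 and 615 TPM in the Lgr5 sort, which overlapped. Of these, Sox2, Prox1, Hes5 and Lfng were lower in sorted D0 cultures without overlap, and 0 were higher. Of the 5 pillar cell markers, Npy and S100b were lower without overlap and Ngfr was higher. The part of these differences in the results was not tested. Fgfr3 and Spry4 passed without any 1 of the 4 libraries, whereas Etv4 lost its call without the second Lgr5 library (adjusted p = 0.215) or the second sorted D0 library (0.167), Fgf20 without the first Lgr5 library (0.0928) or the second sorted D0 library (0.0864), and Fgfr2 without the second Lgr5 library (0.295) or the first sorted D0 library (0.196). In a fit of these 2 groups alone none of the 5 passed, with adjusted p between 0.0817 for Fgfr3 and 0.318 for Fgfr2.

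In sorted D10 cultures set against the Atoh1 sort, Fgfr3 and Fgf20 were the 2 of 10 genes that passed, both lower, where 11.8% of all genes passed in either direction and 7.34% were lower. Fgfr3 averaged 0.417 ± 0.0813 TPM in sorted D10 cultures and 63.4 ± 6.74 TPM in the Atoh1 sort (SD, n = 2 each), a mean 152 times lower in culture and a log2 difference of -5.50 (standard error 0.84, limma adjusted p = 0.00172). Fgf20, listed at 0 in both sorted D10 libraries and at 18.8 and 7.35 TPM in the Atoh1 libraries, had a log2 difference of -3.69 (standard error 0.43, adjusted p = 0.00034). The hair cell markers summed to 1962 and 1615 TPM in sorted D10 cultures against 1443 and 1958 TPM in the Atoh1 sort, which overlapped, but 6 of the 10 were lower without overlap and 2 were higher, Gfi1 and Espn. Espn alone averaged 910 TPM against 381 TPM, and the other 9 summed to a mean of 878 TPM against 1319 TPM. The supporting cell markers summed to 162 and 230 TPM in sorted D10 cultures against 1013 and 441 TPM in the Atoh1 sort, 8 of 10 lower without overlap. Their part in the result was not tested. Fgfr2 had 10.2 and 11.0 TPM in sorted D10 cultures and 3.06 and 2.87 TPM in the Atoh1 sort, without overlap, but did not pass (log2 difference 1.55, standard error 0.81, adjusted p = 0.253). Etv5 did not pass either, with 13.8 and 7.24 TPM in sorted D10 cultures and 21.8 and 39.4 TPM in the Atoh1 sort (log2 difference -1.46, standard error 0.94, adjusted p = 0.362). Both calls held without any 1 library. In a fit of the 2 groups alone Fgf20 missed the threshold (adjusted p = 0.0594).

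**Figure D2:**
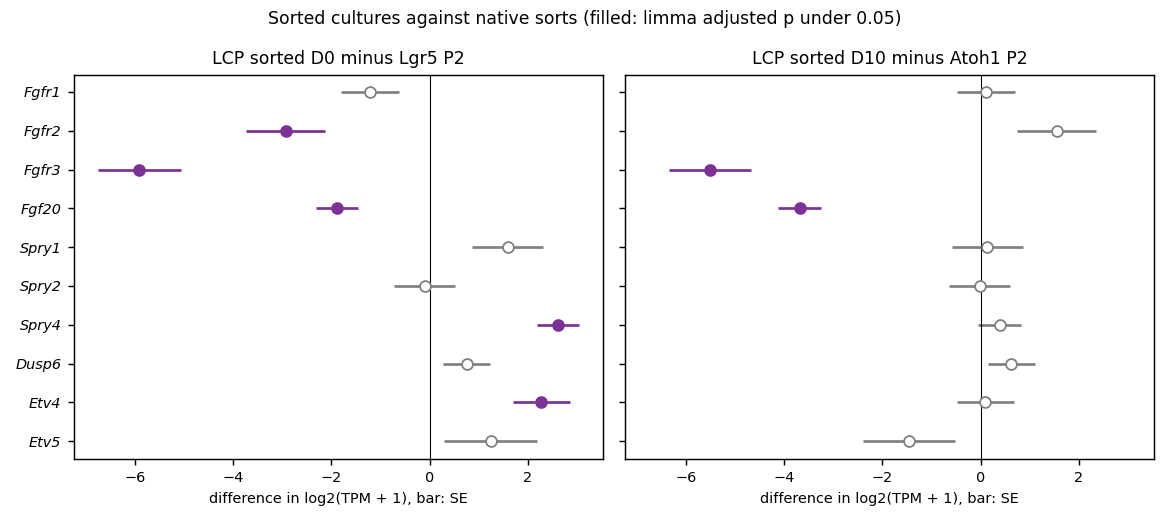
Differences in log2(TPM + 1) with bars of 1 standard error for the 10 genes, filled where the adjusted p was under 0.05: sorted D0 cultures minus the native Lgr5 sort and sorted D10 cultures minus the native Atoh1 sort. Fgfr3 lies at -5.90 and -5.50 and Fgf20 at -1.89 and -3.69, while Spry4 and Etv4 lie above 0 at D0 with 2.61 and 2.27.

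Of the targets and inhibitors of ERK signaling among the 10 genes, Spry4 and Etv4 fell past the threshold by D10 in both unsorted and sorted cultures. Outside the 10 genes, Etv1 and Dusp7 did so as well, as given below. The promoters of 3 inhibitors are shown as the windows searched for the core sequence that ETS factors bind. Each is the 250 bases before the gene start, from the RefSeq promoter table for GRCm38.p6. The table held 6 of the 10 genes, and its start matched the annotated gene start for the 3 shown. The genes left out, Spry4 among them, are not thereby shown to lack such a match. They are Spry1 at chr3:37639697-37639946 on the plus strand, Dusp6 at chr10:99262981-99263230 on the plus strand, and Spry2 at chr14:105896820-105897069 on the minus strand. Capitals mark that core, GGAA, on either strand (as GGAA or as its reverse complement TTCC).
Spry1: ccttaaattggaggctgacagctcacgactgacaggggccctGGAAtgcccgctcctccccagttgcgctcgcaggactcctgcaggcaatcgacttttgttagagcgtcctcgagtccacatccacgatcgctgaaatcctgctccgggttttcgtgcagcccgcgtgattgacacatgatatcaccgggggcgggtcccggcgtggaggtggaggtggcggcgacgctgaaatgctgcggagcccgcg
Dusp6: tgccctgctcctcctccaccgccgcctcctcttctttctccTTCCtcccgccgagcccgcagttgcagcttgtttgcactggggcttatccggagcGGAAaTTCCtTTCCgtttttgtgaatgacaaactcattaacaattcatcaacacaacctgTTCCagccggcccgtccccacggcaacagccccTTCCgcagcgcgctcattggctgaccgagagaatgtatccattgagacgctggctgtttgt
Spry2: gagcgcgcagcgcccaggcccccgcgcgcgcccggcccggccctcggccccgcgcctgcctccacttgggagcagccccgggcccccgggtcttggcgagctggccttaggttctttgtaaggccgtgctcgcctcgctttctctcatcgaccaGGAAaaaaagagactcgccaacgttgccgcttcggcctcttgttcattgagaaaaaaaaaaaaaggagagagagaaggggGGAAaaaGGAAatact
The Dusp6 window held 6 matches, Spry2 held 3 and Spry1 held 1. The median over 32851 promoter windows of 250 bases was 3, and 93.4% held at least 1. The longer ETS motif CCGGAAGT was in none of these 3 windows and in 2.88% of all windows.

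Spry4 fell in unsorted cultures. It had 26.5 and 13.6 TPM at D0, 5.20 and 7.60 TPM at D2, 2.17 and 2.15 TPM at D4, and 1.06 and 2.08 TPM at D10. No later library reached the lower D0 library, and each group from D2 to D10 lay below the one before it without overlap. Against D0 the log2 difference was -1.46 at D2 (standard error 0.43), which did not pass (limma adjusted p = 0.559), -2.66 at D4 (standard error 0.43, adjusted p = 0.00637) and -2.99 at D10 (standard error 0.43, adjusted p = 0.00192).

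Etv4, an ETS factor induced by FGF signaling, fell by D4. It had 37.3 and 43.4 TPM at D0, 41.9 and 26.6 TPM at D2, 12.0 and 3.99 TPM at D4, and 3.71 and 2.03 TPM at D10, so that D2 overlapped D0 while D4 and D10 lay below both. The log2 difference against D0 was -2.36 at D4 (standard error 0.58, limma adjusted p = 0.0497) and -3.45 at D10 (standard error 0.58, adjusted p = 0.00458). The mean at D10 was 14.1 times lower than at D0 for Etv4 and 12.8 times lower for Spry4.

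Spry4 and Etv4 were the members that passed in unsorted cultures. At D2 none of the 10 passed by limma, with Spry4 and Fgf20 the 2 at an unadjusted p under 0.05, and 0.0489% of all genes passed. At D4 it was 2 of 10, both lower, where 3.39% of all genes passed and 2.29% were lower. At D10 it was again 2 of 10, both lower, where 7.39% of all genes passed and 4.34% were lower. The median log2 difference of the 10 genes at D10 was -0.83, against -0.08 over all genes. Fgf20 had log2 differences of -1.05 at D2 (standard error 0.43, adjusted p = 1), -1.49 at D4 (standard error 0.43, adjusted p = 0.0927) and -1.09 at D10 (standard error 0.43, adjusted p = 0.172) in the same limma fit.

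Etv5, Spry1 and Dusp6, the most abundant of the 10 genes in culture, did not pass at any time in unsorted cultures. Etv5 had 274 and 170 TPM at D0, 556 and 191 TPM at D2, 360 and 64.4 TPM at D4, and 130 and 24.3 TPM at D10. The first replicate was the higher one in each of these groups, and the D10 libraries lay below both D0 libraries (log2 difference -1.91, standard error 0.94, limma adjusted p = 0.283). Dusp6, the ERK phosphatase, had 98.7 and 110 TPM at D0, 127 and 168 TPM at D2, 118 and 147 TPM at D4, and 68.3 and 84.2 TPM at D10. Its D10 libraries lay below D0, but the log2 difference was -0.45 (standard error 0.48, adjusted p = 0.683). Spry1 had 97.7 and 59.2 TPM at D0, 194 and 88.9 TPM at D2, 155 and 62.5 TPM at D4, and 39.3 and 37.6 TPM at D10 (log2 difference at D10 -0.97, standard error 0.73, adjusted p = 0.522). Spry2 stayed between 2.59 and 7.71 TPM over the 8 libraries.

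Several markers moved over the same days. The proliferation markers summed to 297 and 356 TPM at D0, 209 and 316 TPM at D2, 50.1 and 41.2 TPM at D4, and 42.0 and 28.5 TPM at D10. These sums overlapped between D0 and D2 and between D4 and D10. All 5 proliferation markers were lower at D10 than at D0 without overlap. The hair cell markers summed to 551 and 1125 TPM at D10 against 69.0 and 65.0 TPM at D0, 9 of 10 higher without overlap. The 10 supporting cell markers summed to 279 and 521 TPM at D10 against 1311 and 575 TPM at D0. Of these, 6 were lower without overlap and 0 were higher. The 8 mesenchyme markers, none at 0 in both libraries, summed to 283 and 219 TPM at D10 against 744 and 817 TPM at D0, a difference that was nearly all Dcn (mean 242 TPM against 770 TPM). The other 7 summed to a mean of 9.05 TPM at D10 against 10.4 TPM at D0. Of the 8, 4 were lower without overlap and Pdgfra was higher. The part of these cells in the result was not tested. The first D0, D2 and D4 libraries carry another sequencing date in the labels than the first D10 library, whereas the second libraries share 1 date. Within that date Spry4 had 2.08 TPM at D10 against 13.6 TPM at D0, and Etv4 had 2.03 TPM at D10 against 43.4 TPM at D0.

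Both D10 calls held without any 1 library. At D4, Etv4 missed the threshold without either D0 library or the second D4 library (adjusted p = 0.178, 0.24 and 0.328), and Spry4 without the first D0 library or the second D4 library (0.0704 and 0.0582). In fits of only the compared groups no member passed, with adjusted p of 0.228 for Spry4 and 0.298 for Etv4 at D4, and 0.174 for Spry4 and 0.126 for Etv4 at D10.

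**Figure D3:**
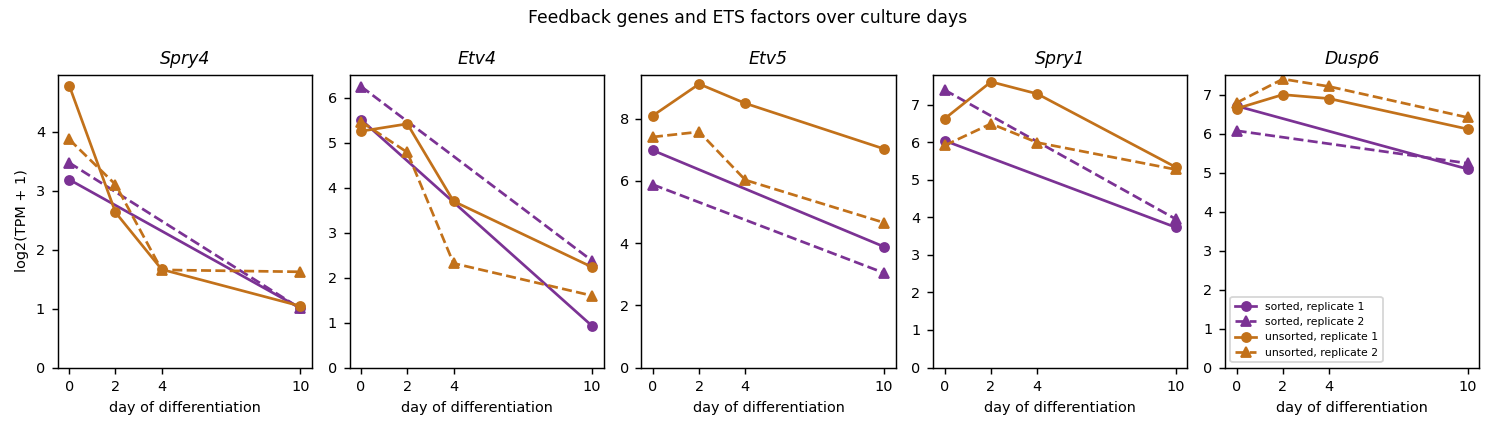
Levels of Spry4, Etv4, Etv5, Spry1 and Dusp6 as log2(TPM + 1) against the day of differentiation, for sorted cultures at D0 and D10 and unsorted cultures at D0, D2, D4 and D10. Points are libraries, and lines join those of 1 replicate number as a guide. Spry4 and Etv4 were lower at D10 than at D0 in both kinds of culture, while Dusp6 in unsorted cultures was 68.3 and 84.2 TPM at D10 against 98.7 and 110 TPM at D0.

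In sorted cultures 5 of the 10 genes fell between D0 and D10 and none rose, where 24% of all genes passed in either direction and 10.7% were lower. Etv4 had 0.897 and 4.19 TPM at D10 against 44.8 and 75.3 TPM at D0, a mean 23.6 times lower and a log2 difference of -4.24 (standard error 0.58, limma adjusted p = 0.00049). Spry4 had 1.01 and 1.00 TPM at D10 against 8.11 and 10.1 TPM at D0, a log2 difference of -2.33 (standard error 0.43, adjusted p = 0.00271). Both genes thus fell in sorted as well as unsorted cultures. The sorted D0 libraries of this comparison are also those set against the Lgr5 sort above, and the D0 libraries of unsorted cultures are shared by the comparisons at D2, D4 and D10.

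The other 3 passed in sorted cultures but not in unsorted ones. Spry1 had 12.3 and 14.5 TPM at D10 against 64.7 and 166 TPM at D0, a log2 difference of -2.87 (standard error 0.73, limma adjusted p = 0.0138). Etv5 had 13.8 and 7.24 TPM at D10 against 126 and 58.0 TPM at D0, a log2 difference of -2.97 (standard error 0.94, adjusted p = 0.0392). Fgf20, listed at 0 in both D10 libraries, had a log2 difference of -1.39 (standard error 0.43, adjusted p = 0.0354). For none of the 3 did the libraries of D10 and D0 overlap. Dusp6 had 33.1 and 36.7 TPM at D10 against 104 and 66.3 TPM at D0, also without overlap, and did not pass (log2 difference -1.23, standard error 0.48, adjusted p = 0.0847).

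Fgfr2 was the member with the largest difference upward, with 10.2 and 11.0 TPM at D10 against 1.06 and 5.71 TPM at D0 in sorted cultures. It did not pass in the fit without a block (log2 difference 1.64, standard error 0.81, limma adjusted p = 0.168), and it passed with the replicate number as a block (adjusted p = 0.0405). The median log2 difference of the 10 genes was -1.31, against 0.02 over all genes. Between sorted D10 and sorted D0 cultures, the proliferation markers summed to 27.9 and 25.8 TPM against 303 and 355 TPM, all 5 lower without overlap, and the hair cell markers to 1962 and 1615 TPM against 34.0 and 28.7 TPM, all 10 higher. The mesenchyme markers summed to 51.4 and 34.3 TPM at D10 against 902 and 423 TPM at D0, nearly all of it Dcn (mean 40.6 TPM against 658 TPM), while the other 7 summed to a mean of 2.25 TPM against 4.86 TPM. Of the 8, 4 were lower without overlap and Pdgfra was higher. The 10 supporting cell markers summed to 162 and 230 TPM at D10 and 886 and 124 TPM at D0, which overlapped. Of these, Hes5, Hey2, Jag1 and Gjb2 were lower at D10 without overlap and Sox2 was higher. The part of all these markers in the result was not tested. Etv4 and Spry4 held without any 1 library, while Etv5 and Fgf20 missed the threshold whichever library was left out (adjusted p = 0.0642 to 0.178 and 0.0808 to 0.134) and Spry1 missed it without the second D0 library or either D10 library (0.107, 0.0826 and 0.0531). In a fit of the 2 groups alone Spry4 and Fgf20 passed (adjusted p = 0.0466 and 0.0347), and Etv4, Etv5 and Spry1 did not (0.0533, 0.0664 and 0.0679).

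The difference between the sorted and the unsorted change from D0 to D10 was tested itself and passed for none of the 10 genes by limma, nor did any reach an unadjusted p under 0.05, while 0.205% of all genes passed. Spry1 had the largest difference, a log2 difference of -1.90, sorted minus unsorted (standard error 1.03, adjusted p = 0.529). The difference was -0.79 for Etv4 (standard error 0.82, adjusted p = 0.753) and 0.67 for Spry4 (standard error 0.61, adjusted p = 0.715). The calls of Spry1, Etv5 and Fgf20 in sorted cultures alone are therefore not shown to be particular to sorted cultures.

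Sorted D10 cultures did not differ from unsorted D10 cultures past the threshold for any of the 10 genes by limma, where 6.22% of all genes passed, 1273 in number and 2434 with the replicate block. That number was 56 without the first unsorted D10 library and 2461 without the second. Etv5 and Dusp6 were the 2 at an unadjusted p under 0.05. Etv5 had 13.8 and 7.24 TPM in sorted D10 cultures and 130 and 24.3 TPM in unsorted D10 cultures (log2 difference -2.38, standard error 0.94, adjusted p = 0.151). These libraries did not overlap, and Etv5 passed with the replicate block (adjusted p = 0.0337) and without the second unsorted D10 library (0.0473). Dusp6 had 33.1 and 36.7 TPM in sorted D10 cultures and 68.3 and 84.2 TPM in unsorted D10 cultures (log2 difference -1.10, standard error 0.48, adjusted p = 0.188), and Spry1 had 12.3 and 14.5 TPM against 39.3 and 37.6 TPM (log2 difference -1.46, standard error 0.73, adjusted p = 0.248). The 10 markers of dissociation stress summed to 1250 and 1516 TPM in sorted D10 cultures and 1902 and 4144 TPM in unsorted D10 cultures. Of these, 4 were lower in sorted D10 cultures without overlap and 0 were higher. Their part in the levels of the 10 genes was not tested.

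At D0 none of the 10 genes passed between sorted and unsorted cultures by limma, where 0.0782% of all genes passed (16 genes, and 25 with the replicate block), and Spry4 and Fgfr1 were the 2 at an unadjusted p under 0.05. Spry4 had 8.11 and 10.1 TPM in sorted D0 cultures and 26.5 and 13.6 TPM in unsorted D0 cultures (log2 difference -0.99, standard error 0.43, adjusted p = 0.509). Fgfr1 had 6.66 and 10.6 TPM in sorted D0 cultures and 27.7 and 18.4 TPM in unsorted D0 cultures (log2 difference -1.32, standard error 0.58, adjusted p = 0.51). For both genes the sorted libraries lay below the unsorted ones.

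In native cells the Atoh1 sort was set against the average of both supporting cell sorts, Lgr5 and Sox2, the comparison of hair cells with supporting cells. None of the 10 genes passed by limma, Etv4 and Fgfr2 were the 2 at an unadjusted p under 0.05, and 0.821% of all genes passed. Fgfr2 had 3.06 and 2.87 TPM in the Atoh1 sort, below the 10.6 to 57.5 TPM of the 4 supporting cell libraries (log2 difference -2.35, standard error 0.70, adjusted p = 0.182), and it passed with the replicate number as a block (adjusted p = 0.0409). Etv4 had 1.86 and 2.04 TPM in the Atoh1 sort, below the 5.75 to 17.4 TPM of the supporting cell libraries (log2 difference -1.73, standard error 0.50, adjusted p = 0.171). Groups did not overlap for either gene.

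Fgfr3, a supporting cell gene in the postnatal mouse cochlea, had 68.1 and 58.6 TPM in the Atoh1 sort and 72.5 to 216 TPM in the supporting cell libraries. The Atoh1 libraries were the lowest of the 6, without overlap, but the difference did not pass (log2 difference -0.82, standard error 0.73, limma adjusted p = 0.74). The summed supporting cell markers in the Atoh1 sort, given above, were within the range of the Lgr5 and Sox2 libraries, 400 to 3397 TPM. Of these 10 markers, Hey2, Lfng and Slc1a3 were lower in the Atoh1 sort without overlap, and 0 were higher. The largest, Hes5, averaged 197 TPM there and 628 TPM in the supporting cell sorts. All 5 pillar cell markers were lower without overlap as well. The part of these markers in the Fgfr3 level was not tested. Fgf20 had 18.8 and 7.35 TPM in the Atoh1 sort and 5.24 to 10.2 TPM in the supporting cell libraries, which overlapped (log2 difference 0.70, standard error 0.37, adjusted p = 0.501). Dusp6 had 30.5 and 16.1 TPM in the Atoh1 sort and 27.3 to 86.0 TPM in the supporting cell libraries, which also overlapped (log2 difference -0.90, standard error 0.41, adjusted p = 0.418). Between the Lgr5 and the Sox2 sort none of the 10 genes passed by limma and none reached an unadjusted p under 0.05, where 0.557% of all genes passed. Their log2 differences, Lgr5 minus Sox2, ran from -0.09 to 1.04, and the smallest adjusted p was 0.933, for Spry1. The 6 glia markers summed to 60.5 and 69.3 TPM in the Lgr5 sort and 427 and 936 TPM in the Sox2 sort, 5 of the 6 lower in the Lgr5 sort without overlap.

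Beside the 10 genes, 68 other genes of the pathway were read in 6 lists, of which 55 passed the filter: 10 of 17 other ligands, all 4 intracellular FGF homologous factors, 4 of 7 other receptors and co-receptors, all 19 adaptors and kinases of the ERK cascade, 9 of 11 other feedback inhibitors and ERK targets, and 9 of 10 heparan sulfate enzymes. Between D10 and D0, 1 of the 55 rose and 4 fell in unsorted cultures, and 4 rose and 10 fell in sorted cultures. That was 9.09% of the 55 in unsorted cultures, beside 7.39% of all genes tested, and 25.5% in sorted cultures, beside 24% of all genes tested, so the share in sorted cultures was near the background. At D4 against D0, 1 rose and 1 fell, 3.64% of the 55 beside 3.39% of all genes tested. At D2 none passed by limma, beside 0.0489% of all genes tested, with 4 of the 55 at an unadjusted p under 0.05. Over all comparisons these genes made 40 calls, of which 13 held without any 1 library: those of Etv1, Fgf8, Il17rd, Dusp7 and Ext1 in sorted D10 against sorted D0 cultures, Etv1 in unsorted D10 against D0, Fgf8, Flrt2 and Il17rd in sorted D0 cultures against the Lgr5 sort, and Dusp7, Etv1, Ext1 and Sulf2 in sorted D10 cultures against the Atoh1 sort. In fits of the compared groups only, 33 of the 40 were lost.

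Fgf8, the ligand of inner hair cells that signals to Fgfr3 in pillar cells, rose in culture. It was at 0.606 and 1.66 TPM in unsorted cultures at D0, 2.74 and 19.4 TPM at D2, 19.4 and 52.9 TPM at D4, and 20.6 and 44.2 TPM at D10. The log2 difference against D0 was 4.00 at D4 (standard error 0.76, limma adjusted p = 0.0136) and 3.92 at D10 (standard error 0.76, adjusted p = 0.00935). In sorted cultures Fgf8 had 26.8 and 28.1 TPM at D10 against 0 and 0.367 TPM at D0 (log2 difference 4.60, standard error 0.76, adjusted p = 0.00132). The native sorts had 61.1 and 88.4 TPM in the Atoh1 libraries and 14.3 to 41.0 TPM in the Lgr5 and Sox2 libraries. The pillar cell markers, 5 in number, summed to 298 and 206 TPM in unsorted cultures at D10 against 1109 and 1293 TPM at D0, 3 of them lower without overlap, and most of the sum was Cryab (mean 229 TPM at D10 against 1147 TPM at D0).

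The ligand genes Fgf16 and Fgf3 fell. Fgf16 had 0.0793 to 0.499 TPM in unsorted cultures at D10 and 2.90 to 3.71 TPM at D0 (log2 difference -1.75, standard error 0.32, limma adjusted p = 0.00637), and it was also lower in unsorted cultures at D4 (-1.61, standard error 0.32, adjusted p = 0.0163) and in sorted cultures at D10 (-1.05, standard error 0.32, adjusted p = 0.0308). Fgf3, an otic ligand, was listed at 0 in both sorted D10 libraries against 1.78 and 9.69 TPM at sorted D0 (log2 difference -2.45, standard error 0.64, adjusted p = 0.0161). It was also lower in sorted D10 cultures than in the Atoh1 sort (-3.03, standard error 0.64, adjusted p = 0.0106). The intracellular factors Fgf11 and Fgf12, which are not secreted, rose in sorted cultures by log2 differences of 2.10 (standard error 0.47, adjusted p = 0.00719) and 1.41 (standard error 0.34, adjusted p = 0.0117).

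Among the 9 other feedback inhibitors and ERK targets tested, 2 fell in unsorted cultures and 4 in sorted cultures between D10 and D0, where 4.34% and 10.7% of all genes were lower, and no rise passed. The ERK phosphatase gene Dusp5, named after its values were seen, had 133 to 333 TPM at D10 and 16.2 to 35.6 TPM at D0 in unsorted cultures, without overlap, and missed the threshold (log2 difference 3.07, standard error 0.97, limma adjusted p = 0.0841). Etv1, the third gene of the Etv4 and Etv5 subfamily, had 8.52 to 9.51 TPM at D10 and 30.1 to 50.6 TPM at D0 in unsorted cultures (log2 difference -2.00, standard error 0.29, limma adjusted p = 0.00202), and 5.06 to 6.76 TPM at D10 and 28.2 to 41.2 TPM at D0 in sorted cultures (-2.36, standard error 0.29, adjusted p = 0.00027). Unlike Etv4, which had 1.86 and 2.04 TPM in the Atoh1 sort, Etv1 had its highest levels there, 87.1 to 105 TPM. Sorted D10 cultures lay far below that sort for Etv1 (log2 difference -3.82, standard error 0.29, adjusted p = 1.6e-05). The ERK phosphatase gene Dusp7 fell by log2 differences of -1.95 (standard error 0.40) in both unsorted and sorted cultures (adjusted p = 0.0119 and 0.00431). Il17rd, which encodes the inhibitor Sef, had 0.537 to 1.07 TPM at D10 and 6.35 to 6.62 TPM at D0 in sorted cultures (log2 difference -2.07, standard error 0.38, adjusted p = 0.00262), and Spred1 fell there as well (-1.88, standard error 0.50, adjusted p = 0.0176).

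In the ERK cascade, Map2k1, which encodes the kinase MEK1, had 91.3 to 122 TPM at D10 and 258 to 276 TPM at D0 in unsorted cultures (log2 difference -1.33, standard error 0.24, limma adjusted p = 0.00667). In sorted cultures it fell by -1.12 (standard error 0.24, adjusted p = 0.00604), the adaptor Grb2 fell by -0.71 (standard error 0.23, adjusted p = 0.0437), and Araf rose by 0.95 (standard error 0.24, adjusted p = 0.0124). The other 18 genes of that list in unsorted cultures and the other 16 in sorted cultures did not pass. Of the heparan sulfate genes, Ext1, which encodes a chain polymerase, fell in sorted cultures by a log2 difference of -1.74 (standard error 0.33, adjusted p = 0.00285) and Ext2, its partner, by -1.03 (standard error 0.30, adjusted p = 0.0265).

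**Figure D4:**
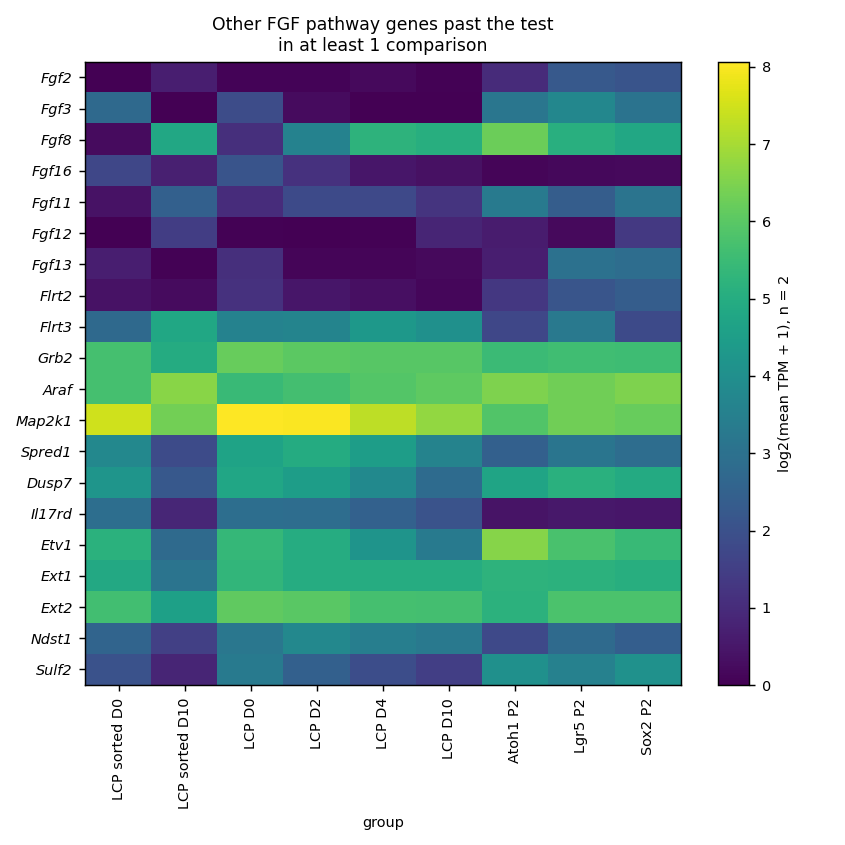
Color scale of log2(mean TPM + 1) over 2 libraries in each of the 9 groups, for the 20 other pathway genes that passed in at least 1 comparison. Fgf8 is high in D4 and D10 cultures and in the native sorts, and Etv1 is highest in the Atoh1 sort, at 87.1 and 105 TPM.

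Of the 55 genes, 3 were higher and 5 lower in sorted D0 cultures than in the Lgr5 sort, 14.5% in all, beside 11% of all genes tested. Fgf16 (log2 difference 1.58, standard error 0.32), Map2k1 (1.19, standard error 0.24) and Il17rd (2.41, standard error 0.38) were higher (limma adjusted p = 0.00703, 0.00785 and 0.00178). Fgf8, at 0 and 0.367 TPM in sorted D0 cultures and 25.5 and 41.0 TPM in the Lgr5 sort, was lower by -4.83 (standard error 0.76, adjusted p = 0.00164). Fgf2, Fgf11, Fgf13 and the co-receptor gene Flrt2 were also lower, by log2 differences of -2.23, -1.99, -2.19 and -1.73 (adjusted p = 0.0187, 0.0174, 0.0112 and 0.00294).

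Between sorted D10 cultures and the Atoh1 sort, 1 of the 55 was higher and 6 were lower, 12.7% in all, beside 11.8% of all genes tested. Flrt3, a co-receptor gene, had 16.1 to 37.5 TPM in sorted D10 cultures and 1.39 to 3.25 TPM in the Atoh1 sort (log2 difference 3.01, standard error 0.68, limma adjusted p = 0.015). Lower beside Etv1 and Fgf3 were Dusp7 (-2.50, standard error 0.40, adjusted p = 0.00217), Ext1 (-2.11, standard error 0.33, adjusted p = 0.00196), Flrt2 (-1.09, standard error 0.30, adjusted p = 0.0361) and Sulf2, which encodes a sulfatase that edits heparan sulfate. Sulf2 had 0.417 to 1.17 TPM in sorted D10 cultures and 15.5 to 15.8 TPM in the Atoh1 sort (-3.24, standard error 0.53, adjusted p = 0.00247). Between sorted and unsorted D10 cultures 3 were lower, Grb2 (-0.97, standard error 0.23, adjusted p = 0.0316), Ext1 (-1.81, standard error 0.33, adjusted p = 0.0123) and Ndst1 (-1.78, standard error 0.44, adjusted p = 0.0377), and none was higher, 5.45% of the 55 beside 6.22% of all genes tested. In native cells Fgf13, another intracellular factor, was the 1 gene of the 55 that passed, 1.82% beside 0.821% of all genes tested. It was lower in the Atoh1 sort (0.337 to 0.843 TPM) than in the Lgr5 and Sox2 sorts (3.60 to 10.7 TPM), with a log2 difference of -2.20 (standard error 0.41, limma adjusted p = 0.0329). Between the Lgr5 and Sox2 sorts and between sorted and unsorted D0 cultures none passed by limma, with 4 and 9 at an unadjusted p under 0.05. None passed for the difference between the sorted and the unsorted change either, with 4 at an unadjusted p under 0.05.

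Over the 9 group means of log2(TPM + 1), the likeness of the 10 genes is given as a description, over points in which all genes share the same libraries. Spry1 and Dusp6 had a Pearson r of 0.953, Spry1 and Etv5 0.911, and Dusp6 and Etv5 0.893, and Spry4 and Etv4 had 0.837. Fgfr3 and Fgf20 had 0.901 with each other, and Fgfr3 had -0.622 with Spry4. The genes of at least 10 TPM in their highest group whose group means were most like those of Fgfr3 were Umodl1, Cpxm1 and Fabp7 (r = 0.989, 0.987 and 0.983). Those most like Fgf20 were Aldh9a1, Cdc34 and Pitpnm1 (0.99, 0.988 and 0.984). For Spry4 they were Prss16, Stil and Alg8 (0.988, 0.986 and 0.985), and for Etv4 they were Hspb2, Pttg1 and Rfc3 (0.985, 0.98 and 0.972), of which Pttg1 encodes securin and Rfc3 a subunit of the clamp loader of DNA replication. For Etv5 they were Gtpbp10, Gabpb1 and Phc2 (0.99, 0.987 and 0.987), and for Dusp6 Zfp521, Znrd1 and Mapkapk3 (0.985, 0.985 and 0.981). Each was picked as the highest of all genes compared, so the height of r is no result.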

How the data were processed

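RNA from 18 mouse cochlear libraries was amplified with the SMARTer V4 kit, made into libraries with ThruPLEX, which does not mark strand, and sequenced single-end, per the labels' protocols. The deposited values are TPM per gene and library, normalized by the authors to gene length and library total. The submitters' processing notes name STAR, Salmon, FastQC, DESeq2 and mm10 but give neither their roles nor versions.

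Of 47729 genes, 20463 that reached 1 TPM in 2 or more libraries were tested as log2(TPM + 1) with limma 3.58.1 (R 4.3.3, moderated with a trend, a mean per group), two-sided, in 1 fit of all libraries with 9 residual degrees of freedom. P-values were adjusted by Benjamini-Hochberg over all genes in each of 11 comparisons, with a threshold of 0.05. Coordinates are from GENCODE M21. The members, the pathway and marker lists and the alternatives were chosen with earlier results of these data known. The rule named all 10 members, up to 4 called genes of each pathway list, and the 3 genes most like a member. An exact permutation test of 2 libraries against 2 cannot reach 0.05, so none was used. TPM keeps no counts, so no counting intervals were given and no count model was used.

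The second replicates share 1 sequencing date in the labels and the first replicates fall on 2 (6 and 3 libraries). The replicate number thus marks a shared sequencing date except in unsorted D10 against D0, sorted against unsorted D0 and the difference between the changes. Extraction date labels differ within both replicate numbers in sorted D0 against the Lgr5 sort and in sorted D10 against the Atoh1 sort. They also differ between the first replicates of sorted and unsorted cultures, and between the second replicates of the Atoh1 sort and the supporting cell sorts. Deviations of same-numbered libraries correlated by -0.0187 to 0.483 over 36 pairs of groups, above 0.1 in 18. In 7 libraries the extraction date label is later than the sequencing date label.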

Additional observations from a re-analysis of the deposited data

How the results depend on the processing

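Depth is unknown, and 2 libraries a group limit every call. Of 42 differences reported for the 10 genes, 16 passed, and none changed direction under any alternative. Of the 16, 5 calls were lost with a pseudocount of 0.1, 5 with no filter, 0 with a filter of 5 TPM, 2 with TPM rescaled per library by the median ratio over 4879 genes, 0 with the replicate block and 13 in fits of the compared groups only, which hold fewer libraries. Leaving out 1 library at a time kept 8 of the 16 in every fit. Beyond them, 3 differences passed with the block (Fgfr2 in 2 comparisons and Etv5 in 1) and Fgf20 at D4 with a pseudocount of 0.1. Of the 40 calls among the other pathway genes, 33 were lost in fits of the compared groups only, 27 without some library, 3 with the pseudocount and 1 with the filter of 5 TPM. The cause of these losses was not tested.

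Counts of all genes moved as follows. With a pseudocount of 0.1, 105 genes passed between the Atoh1 sort and supporting cell sorts (168 as reported), 30 between the Lgr5 and Sox2 sorts (114), 804 between sorted and unsorted D10 (1273) and 27 for the difference between the changes (42). With no filter these were 352, 232, 2164 and 144, with 22 at D2 against D0 (10) and 35 between sorted and unsorted D0 (16). With a filter of 5 TPM they were 53, 19, 750 and 0, with 0 at D2 and 5 at D0. The replicate block, applied to all comparisons, gave 25 between sorted and unsorted D0, 2434 between sorted and unsorted D10, and 1 member each for the Atoh1 comparison and sorted against unsorted D10; it lost no member's call. In fits of the compared groups only, counts were 10 for the Atoh1 sort, 2032 for sorted D10 against D0 (4911), 963 for sorted D10 against the Atoh1 sort (2424), and 0 for the Lgr5 and Sox2 sorts, D2, D4 (693), D10 (1512), sorted against unsorted at D0 and D10, and sorted D0 against the Lgr5 sort (2242).

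Members called were 1 at D4 with a pseudocount of 0.1, no filter or rescaling (2 as reported), 3 with no filter in sorted D10 against D0 (5), and 2 with the pseudocount and 3 with no filter in sorted D0 against the Lgr5 sort (5). With the compared groups only they were 0 at D4, D10 and sorted D0 against the Lgr5 sort, 2 in sorted D10 against D0 and 1 in sorted D10 against the Atoh1 sort.

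Rescaling moved the median of all genes by up to 0.21 on the log2 scale (sorted D10 against the Atoh1 sort) and, in that comparison, gave 1472 genes higher and 1036 lower, 58.7% of calls higher, against 38.0% with TPM as deposited. In the Atoh1 sort against supporting cells that share was 28.6% rescaled and 38.7% with TPM as deposited.

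Without 1 library the numbers of genes called ranged from 73 (without the second Atoh1 library) to 194 for the Atoh1 sort, 45 (second Lgr5) to 285 (first Sox2) for Lgr5 against Sox2, 2 (second D2) to 14 at D2, 183 (second D4) to 629 at D4, 479 (first D0) to 1392 at D10, 2440 (first sorted D10) to 4101 for sorted D10 against D0, 8 (second unsorted D0) to 238 (first sorted D0) for sorted against unsorted D0, 56 to 2461 for sorted against unsorted D10, 1113 (second Lgr5) to 2154 for sorted D0 against the Lgr5 sort, 941 (second sorted D10) to 1226 (first Atoh1) for sorted D10 against the Atoh1 sort, and 21 (first unsorted D10) to 352 (second unsorted D10) for the difference between the changes. Members called ranged from 0 to 2 at D4, 2 to 2 at D10 and in sorted D10 against the Atoh1 sort, 2 to 3 in sorted D10 against D0, 0 to 1 in sorted against unsorted D10 and 3 to 4 in sorted D0 against the Lgr5 sort, and were 0 in the other 5 comparisons.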
